A study of Daphnia magna with 30 samples.

Results

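The comparison set 6 adult Daphnia magna kept on the shortest day of the study, 4 h of light and 20 h of dark (4L:20D), against 6 kept on its control day of 16 h of light and 8 h of dark (16L:8D). These are 12 of the 30 arrays of the series, all arrays with either title. In both groups the animals were females of a single laboratory clone, 21 days old, at 25 °C, from cultures long held in 16L:8D and given no agent. They came from 3 chambers of 20 animals per photoperiod, and from each chamber an animal A and an animal B, 2 in all, were each put on an array of their own from 80 ng of RNA. Whole animals were used, with whatever eggs or young the brood pouch held. The chambers of a photoperiod shared a light-proof box and animals were taken shortly after the lights came on, so day length, box and the length of the preceding night cannot be told apart. The comparison asked which transcripts differed between an extreme short day and the day length of standard toxicity tests.

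Daphnia magna is a planktonic crustacean that reproduces mostly without males, and day length is among the seasonal cues that bear on its growth, moulting and type of egg. Light is sensed by opsins, receptors of the compound eye and nauplius eye whose activated form is shut off by arrestin, and the clock protein Period is part of the daily oscillator of arthropods. Yolk reaches the eggs as vitellogenin, and each brood cycle is tied to a moult of the cuticle, so that transcripts of yolk, eggshell and cuticle vary with the stage an animal has reached.

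A value here is the log2 of the processed signal of a probe less that of the 75th percentile of its array, so 0 is the level of that percentile and a difference of 1 is a doubling. At an adjusted p of 0.05 (limma, Benjamini-Hochberg), 8 of 14337 probes (0.0558%) differed, 1 higher and 7 lower in 4L:20D. The higher probe was that of a glucose dehydrogenase, and the lower ones were those of a high-affinity choline transporter, a rhodopsin, a cytochrome P450, the uncharacterised proteins APZ42_030656 and APZ42_005326, a hypothetical protein and an unannotated transcript. The target sequences of 7 of the 8 are shown because several of these transcripts have little or no annotation and the sequence is what identifies the probe. They are given 5′ to 3′ as in the probe list of the study, and the strand relative to the transcript was not determined. Capitals mark a run of 24 bases that ends the first probe and opens the second.
DM14137P3, APZ42_030656: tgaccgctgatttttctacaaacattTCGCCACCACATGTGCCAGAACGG
DM08656P1, no annotation: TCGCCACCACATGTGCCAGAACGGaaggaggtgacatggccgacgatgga
DM15253P2, hypothetical protein: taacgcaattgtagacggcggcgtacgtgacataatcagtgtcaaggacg
DM05417P2, high-affinity choline transporter: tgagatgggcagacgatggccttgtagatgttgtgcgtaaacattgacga
DM02748P1, APZ42_005326: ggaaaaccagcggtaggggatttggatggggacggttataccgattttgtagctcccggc
DM00868P2, glucose dehydrogenase: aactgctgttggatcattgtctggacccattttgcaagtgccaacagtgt
DM04963P3, cytochrome P450: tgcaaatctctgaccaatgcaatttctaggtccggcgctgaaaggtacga

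A run of 24 or more shared bases was found in 5 of the 453628 pairs among the 953 probes with a listed sequence. DM14137P3 and DM08656P1 thus target a common stretch, and whether they read the same transcript could not be settled, so their results are not counted as independent here. A further probe, DM07202P1, carries the APZ42_030656 annotation but shares a run of only 8 bases with DM14137P3.

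The probe with the smallest adjusted p was DM15253P2, the hypothetical protein. In the 6 animals of 16L:8D its value was -3.99 at the lowest, -3.49 at the median and -2.81 at the highest, and the probe was well above background in all 6. In 4L:20D the values were -8.13, -7.30 and -6.56, and the probe was well above background in none. The groups did not overlap, which was true of 56 probes (0.391% of those tested), 16 higher and 40 lower in 4L:20D. Since the level in 4L:20D was only bounded, in those animals the transcript was lower by at least 5.07-fold (means -7.40 ± 0.58 and -3.45 ± 0.45, SD, n = 6, limma adjusted p 2.55e-07). For such a bound, each animal of the dimmer group was given the lowest detectable value of its array where the probe lay under it. The mean of the brighter group was set against the mean of these. Animals of the brighter group kept their own values, above background or not. The bound thus concerns the means of the animals measured and has no error attached. In whole animals, fewer cells of a type and less RNA per cell cannot be told apart.

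DM14137P3 and DM08656P1 were likewise above background in 0 of 6 short-day animals and in 5 of 6 controls. For DM14137P3 the lowest, median and highest values were -8.22, -7.69 and -5.47 in 4L:20D and -5.19, -4.02 and -2.59 in 16L:8D. The groups did not overlap, but the highest 4L:20D animal, replicate 3 animal B, came close to the lowest control animal. The transcript was lower by at least 3.00-fold (means -7.42 ± 0.98 and -4.08 ± 0.99, SD, n = 6, limma adjusted p 0.00661). DM08656P1 read -7.79, -7.09 and -6.42 in 4L:20D and -6.81, -3.88 and -2.40 in 16L:8D. These groups overlapped through a single control animal, replicate 3 animal A, and the bound was 3.20-fold lower at least (means -7.14 ± 0.53 and -4.11 ± 1.53, SD, n = 6, limma adjusted p 0.0346). The other APZ42_030656 probe, DM07202P1, was well above background on 0 and 1 of 6 arrays, with a mean of -7.01 ± 0.51 for 4L:20D against -6.14 ± 0.68 for 16L:8D (SD, n = 6), and it did not pass (limma adjusted p 0.56).

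The choline transporter carries choline back into nerve endings, where it is made into the transmitter acetylcholine. Its probe, DM05417P2, was well above background on all 12 arrays. The lowest, median and highest values were -3.96, -3.75 and -3.28 in 4L:20D and -2.93, -2.30 and -2.07 in 16L:8D. The groups did not overlap, and the transcript fell by 1.29 ± 0.20 (log2, SE), or was 2.44-fold lower (limma adjusted p 0.00784). Of the 6 annotated probes with terms of neural signalling it was the only one that passed. A kainate-type glutamate receptor probe (DM10810P1) differed by 0.95 ± 0.63 (log2, SE, limma adjusted p 0.641) and another (DM10654P3) by -0.24 ± 0.32. Glutamate decarboxylase, which makes the transmitter GABA (DM00966P3), differed by -0.05 ± 0.17 (log2, SE) and neuroligin-4, a synaptic adhesion protein (DM05377P3), by -0.18 ± 0.21.

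DM02748P1, for the uncharacterised APZ42_005326, was also well above background in every animal. It read 2.47, 3.02 and 3.24 (lowest, median, highest) in 4L:20D and 3.09, 5.71 and 6.57 in 16L:8D, with the animals of 4L:20D close together and a single control animal, replicate 1 animal B, among them. The transcript fell by 2.34 ± 0.41 (log2, SE, 5.05-fold, limma adjusted p 0.0284). The same control animal was the lowest of its group for DM08380P2, annotated as APZ42_004263, at -0.85 where the other control animals read 0.43 to 2.38 and the 4L:20D animals -1.77 to -0.72. DM08380P2 differed by -2.15 ± 0.43 (log2, SE) and narrowly missed the threshold (limma adjusted p 0.0796).

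The rhodopsin probe DM01796P2, annotated as gprop1, was the smallest of the changes that passed. Its lowest, median and highest values were -1.36, -1.16 and -1.10 in 4L:20D and -1.09, -0.59 and -0.46 in 16L:8D, so that the groups touched but did not overlap. It fell by 0.55 ± 0.10 (log2, SE, 1.47-fold, limma adjusted p 0.0346).

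The glucose dehydrogenase probe DM00868P2, for an enzyme that oxidises glucose, was the only one higher in 4L:20D. The lowest, median and highest values were -3.95, -3.10 and -2.42 in 4L:20D and -6.13, -4.40 and -4.19 in 16L:8D. The groups did not overlap, with the control animal replicate 3 animal A far below the rest and not above background. Without the array of that animal the probe did not pass. The transcript rose by 1.56 ± 0.28 (log2, SE, 2.94-fold, limma adjusted p 0.0316). Other probes annotated as glucose dehydrogenase did not pass. DM00907P2 differed by 1.64 ± 0.72 (log2, SE), without overlap of the groups. It was above background in 3 of 6 short-day animals and 0 of 6 controls, so no bound is given. In contrast, DM12607P4 differed by -1.03 ± 0.46 and DM11070P3 by -0.70 ± 0.59.

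The cytochrome P450 probe DM04963P3, for an oxidising enzyme of a family that metabolises hormones and foreign compounds, was not well above background on any of the 12 arrays. Its mean was -7.67 ± 0.26 for 4L:20D against -6.11 ± 0.59 for 16L:8D (SD, n = 6, limma adjusted p 0.0284), and no fold is given since both lay in the background. Over the 1141 probes that were above background on none of the 12 arrays, the median difference was -0.25, and 899 of them read lower in 4L:20D. The quartiles were -0.38 and -0.04, and the difference of DM04963P3 was the lowest of the 1141.

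**Figure D1:**
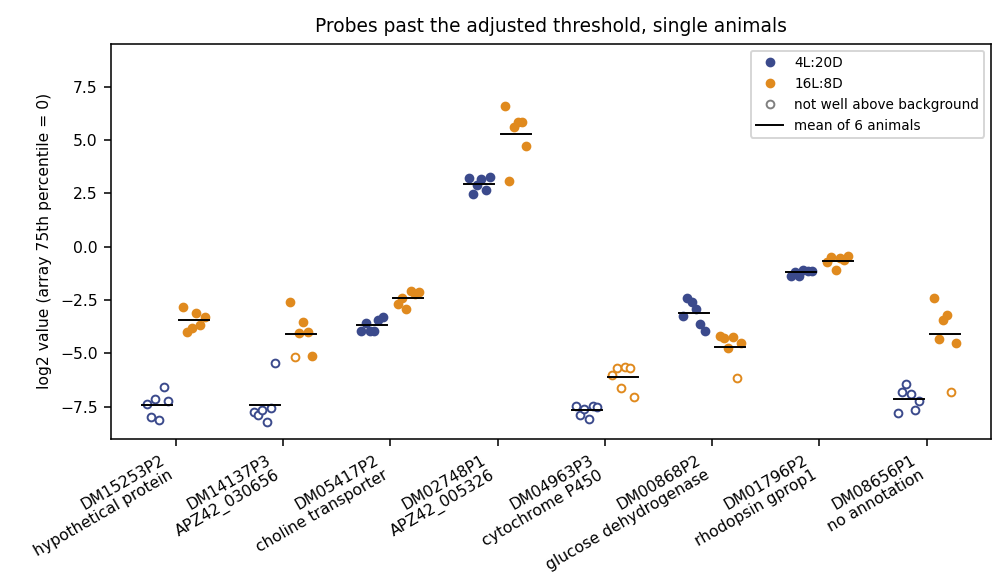
Log2 values of the 8 probes past the adjusted threshold, with a point for each animal (6 per photoperiod), open where the probe was not well above background and a bar at the mean of the 6. The probes run from the smallest p on the left, and DM15253P2 shows the widest gap between the groups, from -6.56 to -3.99.

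The means of the 3 chambers of 4L:20D lay apart from those of the 3 chambers of 16L:8D for each of the 8 probes. Slide 5 held 2 arrays of each group and slide 4 held 1 of each, and within both slides the 8 probes differed in the same direction as over all arrays. On these slides every 4L:20D array was of an animal B and every 16L:8D array of an animal A. Day length and letter cannot be told apart there. The control array of slide 4 was replicate 3 animal A, which had the fewest probes above background. DM15253P2 differed by -4.76 within slide 5 and by -3.54 within slide 4, DM05417P2 by -0.94 and -1.06, DM00868P2 by 1.79 and 2.18, and DM08656P1 by -3.94 and -0.44. With slide as a fixed block in the fit, DM15253P2 alone passed, at a difference of -4.06 ± 0.41 (log2, SE, limma adjusted p 8.64e-05). The other differences stayed close in size in that fit, among them -3.53 ± 0.65 for DM14137P3, -1.28 ± 0.23 for DM05417P2, -2.66 ± 0.50 for DM02748P1 and 1.64 ± 0.28 for DM00868P2 (limma adjusted p 0.116, 0.0895, 0.12 and 0.0894). The normexp setting joined background correction, an offset that narrows differences between dim signals, and quantile normalisation, so their parts cannot be told apart. With it DM00868P2 differed by 0.54 ± 0.08 and DM15253P2 by -0.84 ± 0.13 (limma adjusted p 0.0143 and 0.0161). DM14137P3 then differed by -0.55 ± 0.19, DM08656P1 by -0.63 ± 0.22, DM05417P2 by -0.65 ± 0.14 and DM04963P3 by -0.20 ± 0.05, and none of these passed (limma adjusted p 0.656, 0.656, 0.21 and 0.589). The bounds given above hold for the processed signal only. Single arrays that stood apart were left out in turn. Without replicate 1 animal A of 4L:20D (the lowest signal of its group) 3 of the 8 probes passed. Without replicate 2 animal A of 4L:20D (scanned on a later day) 3 passed. Without replicate 3 animal A of 16L:8D (the fewest probes above background) 4 passed. All of these were lower in 4L:20D, so DM00868P2 was not among them, and no other probe passed in these fits.

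The other photoperiods, 8L:16D, 12L:12D and 20L:4D, give levels on both sides of the control day. In animals on 8L:16D the choline transporter probe DM05417P2 averaged -3.57 ± 0.29 (SD, n = 6), and its difference from 4L:20D did not pass (-0.12, limma adjusted p 0.89), and in 12L:12D it averaged -2.81 ± 0.33. DM02748P1 averaged 3.34 ± 0.59 in 8L:16D and 5.14 ± 0.54 in 12L:12D, and 4L:20D did not pass against 8L:16D (limma adjusted p 0.807). DM14137P3 and DM08656P1 were well above background on none of the 6 arrays of 8L:16D either. Between 8L:16D and 16L:8D 2 probes passed, both lower in 8L:16D: DM05417P2 (-1.17, limma adjusted p 0.0479) and DM14137P3 (-3.56, limma adjusted p 0.0049). DM15253P2 was the only probe of the array that passed between 4L:20D and 8L:16D, where it averaged -4.98 ± 0.60 and was well above background on 5 of 6 arrays (limma adjusted p 0.00169). Glucose dehydrogenase DM00868P2 averaged -3.49 ± 0.27 in 8L:16D and -4.55 ± 0.28 in 12L:12D, and rhodopsin DM01796P2 averaged -0.88 ± 0.11 and -1.07 ± 0.17, neither past the threshold against 4L:20D (limma adjusted p 0.744 and 0.157 for DM00868P2, 0.473 and 0.928 for DM01796P2). On the longest day, 20L:4D, DM14137P3 averaged -2.17 ± 1.27, DM08656P1 -1.80 ± 1.13, DM05417P2 -1.88 ± 0.42 and DM02748P1 5.95 ± 0.88 (SD, n = 6), all above their means in 16L:8D, although 0 probes passed between 20L:4D and 16L:8D (limma, adjusted, with 757 at an unadjusted p below 0.05). The other called probes did not continue past 16L:8D in this way. DM15253P2 averaged -3.44 ± 0.62 in 20L:4D, level with 16L:8D (-3.45). DM01796P2 averaged -0.96 ± 0.17 and DM04963P3, in the background, -6.93 ± 0.66, both below their means in 16L:8D as in 4L:20D. DM00868P2 averaged -4.15 ± 0.38, above its mean in 16L:8D as in 4L:20D. Between 4L:20D and 20L:4D 8 probes passed. The comparisons share the 6 arrays of 4L:20D or of 16L:8D.

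The call rule of the study's methods uses no adjustment: a photoperiod p below 0.01, a pairwise p below 0.05 and at least a 1.5-fold change. Over the whole array it called 83 probes (0.579%), 26 higher (0.181%) and 57 lower (0.398%) in 4L:20D, against 1268 probes (8.84%) with a pairwise p below 0.05 alone. The 31.3% share of higher calls depended on the scaling of the arrays: it was 45.1% after quantile normalisation and 53.5% when arrays were scaled to their median. Differences also moved with brightness, with a median of -0.22 over the dimmest 2867 probes and of 0.06 over the brightest 2868. For 22 of the 83 probes, neither group had 5 arrays above background.

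**Figure D2:**
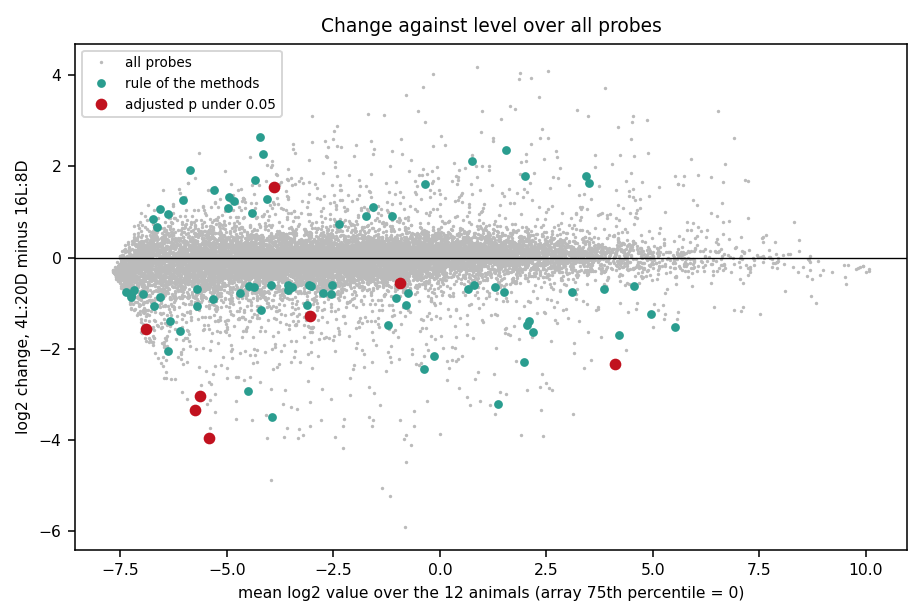
Log2 change (4L:20D minus 16L:8D) of each probe against its mean log2 value over the 12 animals, with the 83 calls of the methods' rule and the 8 probes past the adjusted threshold marked. The cloud of grey points is centred below 0 at the dim end, where the median change of the dimmest 2867 probes was -0.22.

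Among the 10 calls of this rule with the smallest p that missed the adjusted threshold, several were well above background on all 12 arrays and had groups that did not overlap. DM07176P3, without annotation here, read 1.14 to 1.68 in 4L:20D and 2.12 to 3.33 in 16L:8D, a difference of -1.40 ± 0.28 (log2, SE, limma adjusted p 0.0796). DM00119P1, a hypothetical protein that an older annotation in the study's list likens to a ribosomal protein, read -3.82 to -3.20 and -3.09 to -2.49, a difference of -0.59 ± 0.12 (limma adjusted p 0.1). DM08994P3, without annotation here, read 2.36 to 3.21 and 3.24 to 3.81, a difference of -0.75 ± 0.16 (limma adjusted p 0.122). Of these 3 probes, the groups stood furthest apart for DM07176P3 and almost touched for DM08994P3.

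In the other direction, DM05678P4, annotated as nitrate reductase 1, read 2.48 to 3.41 in 4L:20D and 0.02 to 2.42 in 16L:8D, a difference of 1.80 ± 0.39 (log2, SE, limma adjusted p 0.142). DM08911P1, for the uncharacterised APZ42_000816, was lower by the rule and read -2.16 to -0.87 and 0.19 to 1.59, a difference of -2.45 ± 0.61 (limma adjusted p 0.39). Neither group overlapped the other for these 2 probes. The remaining probes of the 10 were DM08380P2, DM03055P2 and the unannotated DM06170P1, DM12048P1 and DM07881P2, all with lower means in 4L:20D, by -1.52 to -0.79 for the unannotated ones.

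Probes with sequence-based annotation were grouped into 13 lists by terms in that annotation. The study annotated probes that it called in any photoperiod comparison of either of its trials, partly from these arrays. The lists are therefore not independent evidence of a direction. Of the 83 calls of the rule, 51 (15 higher, 36 lower) were of probes on the study's lists, where 953 probes had a listed sequence. The percentages over the whole array are thus too low a background for the counts of calls within a list. Of all members together, only DM01796P2, DM05417P2, DM04963P3 and DM00868P2 passed the adjusted threshold.

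Light sensing had 6 probes, all well above background on all 12 arrays and all on the study's lists for this trial. All 6 read lower in 4L:20D, with a median difference of -0.62 against -0.05 over all probes, but only rhodopsin DM01796P2 passed. With normexp background correction or with slide as a block, DM06131P3 turned to 0.035 or 0.027 and the list was 5 lower and 1 higher. The rule of the methods called 3 lower: arrestin DM03055P2, the rhodopsin DM06155P2 and the CRAL/TRIO protein DM13599P2, of a family that binds retinoids and other lipids. Arrestin read 3.91, 4.15 and 4.75 (lowest, median, highest) in 4L:20D and 4.64, 4.86 and 5.14 in 16L:8D, a difference of -0.62 ± 0.15 (log2, SE, limma adjusted p 0.307). All but 1 animal of 4L:20D lay below all control animals. The rhodopsin DM06155P2 differed by -0.68 ± 0.19 (limma adjusted p 0.507), DM12611P4, annotated as rhodopsin gprop2, by -0.69 ± 0.27 (limma adjusted p 0.56), and the rhodopsin DM06131P3 by -0.18 ± 0.18 (limma adjusted p 0.757). DM01796P2, DM06155P2 and DM06131P3 are all annotated as gprop1, and whether they read the same gene could not be settled from their annotation. On the longest day, 20L:4D, all 6 light-sensing probes also averaged below 16L:8D, and none passed. The differences ran from -0.94 for DM13599P2 to -0.30 for DM01796P2, with -0.66 for arrestin DM03055P2. A lower mean than in 16L:8D was thus not particular to 4L:20D.

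Of the 4 clock probes none passed and none was called by the rule of the methods. The Period probes DM09904P4 and DM14516P3 differed by -0.11 ± 0.21 and 0.13 ± 0.21 (log2, SE, limma adjusted p 0.888 and 0.868). The F-box/LRR-repeat protein 12 probe DM12109P1, of a protein family that marks others for breakdown, read -1.87, -1.55 and -1.13 in 4L:20D and -2.14, -1.90 and -1.64 in 16L:8D, a difference of 0.33 ± 0.14 (limma adjusted p 0.56).

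**Figure D3:**
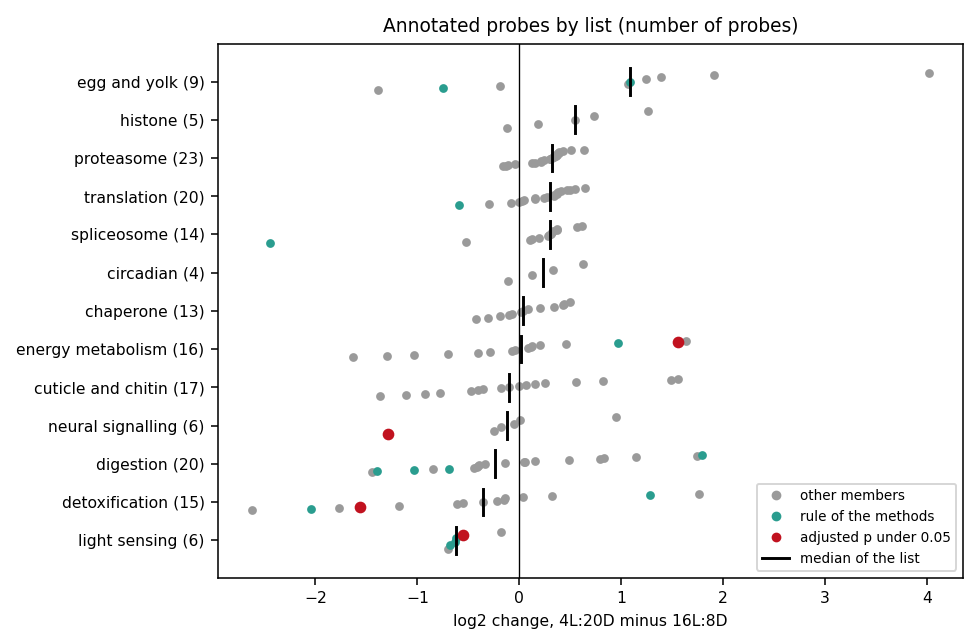
Log2 change (4L:20D minus 16L:8D) of the annotated probes of 13 lists, with the number of probes in parentheses and a bar at the median of each list. All 6 light-sensing probes lie below 0, while the 9 egg and yolk probes spread from -1.39 to 4.02.

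The egg and yolk list had 9 probes with a median difference of 1.09 and a range of -1.39 to 4.02, and none passed. The median fell to 0.29 with normexp, and over the 4 members above background on all 12 arrays, 1 read higher and 3 lower, with a median of -0.47. Vitellogenin, the yolk precursor, read lower: DM00375P2 read 0.61 at the lowest and 1.27 at the median in 4L:20D and 1.60, 1.87 and 2.06 (lowest, median, highest) in 16L:8D, without overlap, a difference of -0.75 ± 0.22 (log2, SE, limma adjusted p 0.56, called lower by the rule of the methods). The other vitellogenin probe, DM01555P3, differed by -1.39 ± 0.69, and its groups overlapped. The 4 probes annotated as chorion peroxidase, which hardens the eggshell in insects, read higher by 1.24 to 4.02 with wide errors. DM08907P2, singled out after its values were seen, differed by 4.02 ± 1.44 (limma adjusted p 0.56). It was well above background in all 6 animals of 4L:20D, at -0.44 to 3.15. In 16L:8D the animals fell apart, with 3 not above background (-5.77, -5.29 and -4.88) and 3 that read -0.63, 0.66 and 2.81. Notch, a cell surface receptor of development that the list includes, was higher by the rule of the methods (DM03056P3, 1.09 ± 0.48, limma adjusted p 0.56) and was well above background in 5 and 2 of 6 animals.

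The same 3 control animals, replicate 1 animal A, replicate 2 animal B and replicate 3 animal A, were low for some other probes of the egg, cuticle and histone lists, picked after their values were seen. The cuticle protein DM12885P2 read 1.41, 1.39 and 2.16 in them and 4.96 to 5.48 in the other control animals. Histone H2A (DM02525P1), a protein of new chromatin, read -0.27, -0.24 and -1.05 in them and 3.46 to 3.70 in the others. Chorion peroxidase DM03869P1 read -6.19, -5.32 and -6.57 in them and -4.28 to -3.73 in the others. A vitelline membrane outer layer protein probe (DM11500P2) read -3.38, -3.33 and -1.77 in them and -1.28 to -0.46 in the others. Vitellogenin DM01555P3 split the same animals in reverse, at -0.80, -0.16 and -0.05 in these 3 and -2.67 to -1.16 in the others. Some further probes of these lists did not split the controls in this way. For chorion peroxidase DM03972P1 and DM08909P1 the lowest control was replicate 2 animal A (-6.46 and -7.34), which was among the others above. The cuticle protein DM08522P1 was highest in replicate 3 animal A (1.80). The 2 sets of animals overlapped for histone H2A.V (DM04808P4) and chitin deacetylase DM03120P2. They also overlapped for vitellogenin DM00375P2 and the vitelline membrane outer layer protein probe DM06044P1. In 4L:20D the lowest animal was replicate 1 animal B for DM08907P2 (-0.44), DM12885P2 (2.59) and DM02525P1 (-0.08). The mean over the egg and yolk list ran from -2.16 to -1.01 in the animals of 4L:20D and from -3.37 to -0.98 in those of 16L:8D. The part of the stage of the animals in the differences between the groups was not tested.

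**Figure D4:**
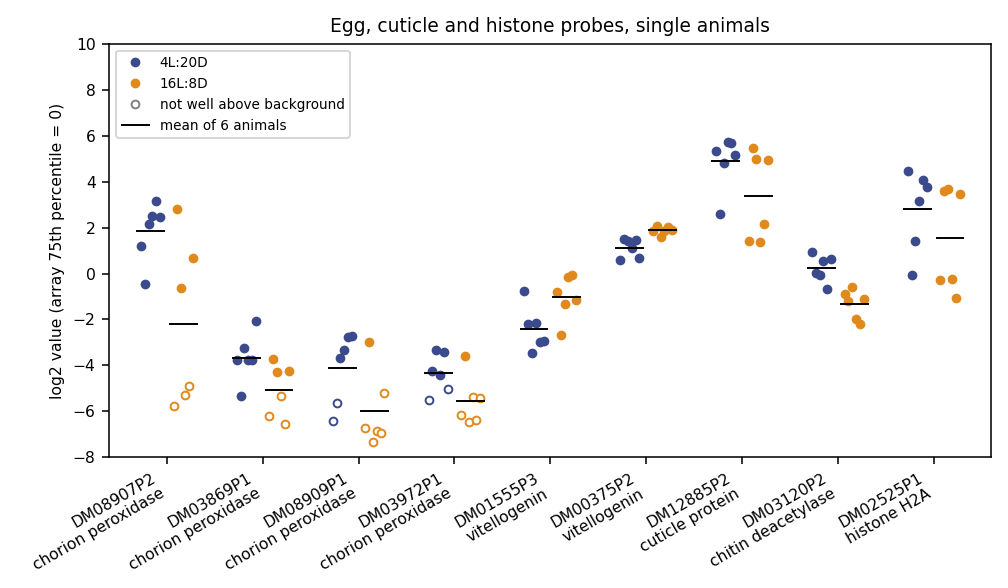
Log2 values of 9 probes with egg, cuticle or histone annotation, with a point for each animal (6 per photoperiod), open where the probe was not well above background and a bar at the mean. The chorion peroxidase probe DM08907P2 splits the 16L:8D animals into 3 low (-5.77 to -4.88) and 3 high (-0.63 to 2.81), and the cuticle protein and histone probes split the same animals. The chorion peroxidase probes DM08909P1 and DM03972P1 do not.

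None of the 17 cuticle and chitin probes passed or was called by the rule of the methods, with a median difference of -0.10 that ran from -0.74 with slide as a block to 0.21 without replicate 3 of 16L:8D over the 25 alternatives, so that it has no settled direction. Chitin deacetylase DM03120P2, which modifies the chitin of the cuticle, read -0.69, 0.30 and 0.95 in 4L:20D and -2.22, -1.15 and -0.59 in 16L:8D, a difference of 1.56 ± 0.72 (log2, SE, limma adjusted p 0.56). A single animal of 4L:20D reached into the range of the controls.

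Of the 20 digestion probes none passed, their median of -0.24 turned to 0.0044 with normexp and 0.15 over members above background on at least 5 of 6 arrays of a group, and the rule of the methods called 1 higher and 3 lower. Chymotrypsin DM04058P1, a protease of the gut, read 3.00, 4.22 and 5.99 in 4L:20D and 0.48, 2.35 and 4.31 in 16L:8D, a difference of 1.80 ± 0.63 (log2, SE, limma adjusted p 0.56). The amylase probes, for the enzyme that breaks down starch, read lower. DM01884P2 averaged -7.03 ± 0.96 and -5.64 ± 1.09 (SD, n = 6). DM05956P1 differed by -0.69 ± 0.29 (log2, SE) and DM00223P2, which the rule did not call, by -1.45 ± 0.66. The first of these was above background on 0 and 2 of 6 arrays and the second on 1 and 1, so only DM00223P2 was measured in every animal. DM07337P1, a patatin phospholipase domain protein, the mammalian namesake of which releases fatty acids from stored fat, differed by -1.04 ± 0.34 (limma adjusted p 0.56).

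Among the 15 detoxification probes, besides DM04963P3, the rule of the methods called the cytochrome P450 305a1 probe DM12027P2 lower and a sulfotransferase, which conjugates small molecules (DM02287P2), higher by 1.29 ± 0.49 (log2, SE, limma adjusted p 0.56). DM12027P2 was well above background on 0 and 2 of 6 arrays, so no bound is given. Its means were -7.40 ± 0.53 and -5.35 ± 1.28 (SD, n = 6, limma adjusted p 0.476). The median of the list was -0.36, with 11 of 15 lower, and ran from -0.62 to -0.11 over the 25 alternatives.

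In energy metabolism, with 16 probes and a median of 0.02 that took either sign over the alternatives, the rule of the methods called 2 higher: DM00868P2 and the probe of 6-phosphofructo-2-kinase/fructose-2,6-bisphosphatase, which sets the pace of glycolysis (DM08772P1). DM08772P1 read -4.62, -3.88 and -3.47 (lowest, median, highest) in 4L:20D and -6.05, -4.64 and -4.18 in 16L:8D, a difference of 0.97 ± 0.26 (log2, SE, limma adjusted p 0.476), with 6 and 4 animals above background. Haemoglobin DM01567P2, the oxygen carrier of Daphnia, differed by -1.30 ± 0.53 (limma adjusted p 0.56).

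The proteasome, translation and spliceosome lists read slightly higher in 4L:20D without any member that passed. For the proteasome, which breaks down proteins, 19 of 23 probes read higher, with a median of 0.32 and a range of -0.16 to 0.64, and the rule of the methods called none. DM00170P1, for the 26S protease regulatory subunit 6B, differed by 0.37 ± 0.17 (log2, SE, limma adjusted p 0.56). For translation the median was 0.30, with 16 of 20 higher, and for the spliceosome 0.30, with 12 of 14 higher; each held 1 call of the rule, lower in both (DM00119P1, and DM08911P1, which an older annotation likens to the U1 small nuclear RNA). Without replicate 3 animal A of 16L:8D, the array with the fewest probes above background, these medians were 0.19 for the proteasome (20 of 23 higher), 0.14 for translation (13 of 20) and 0.15 for the spliceosome (11 of 14). The translation median was also 0.19 when replicate 3 of 4L:20D was left out and 0.18 when that of 16L:8D was. Over the 25 alternatives the spliceosome median ran from 0.13 with array weights to 0.52 with slide as a block. The chaperones had a median of 0.04 that took either sign over the alternatives. The median of the 5 histone probes, 0.55, fell to 0.068 without replicate 3 of 4L:20D and to 0.080 with normexp. Proteasome probes had a median brightness at the 80.6th percentile, where probes in general also read slightly higher (0.06 over the brightest 2868).

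Detection by the scanner software gave a further view. A probe was counted as well above background where at least 1 of its spots was so scored. Of the 14338 probes, short-day animals had 80.7 ± 3.97% so scored and controls 78.5 ± 4.18% (SD, n = 6), a difference of 2.20 percentage points within the spread of animals (two-sided exact permutation test, p = 0.387). Both groups detected 9084 probes on all 6 arrays and 1141 on none. Of the others, 2203 probes were detected on more arrays of 4L:20D and 1028 on more arrays of 16L:8D. A gap of 4 or more arrays was found for 50 probes in favour of 4L:20D and 8 in favour of 16L:8D. The control array with the fewest probes above background, replicate 3 animal A, had 70.1%, and its part in the counts of such gaps was not tested.

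**Figure D5:**
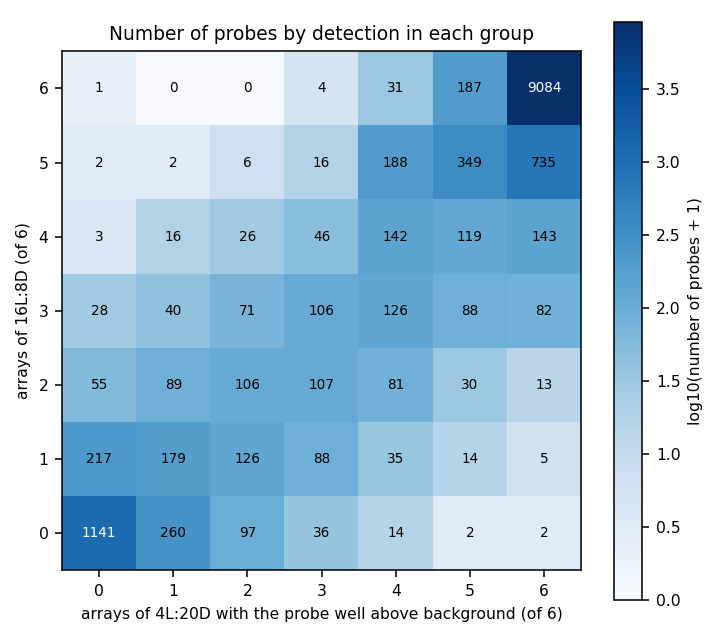
Number of probes for each combination of arrays well above background in 4L:20D (x axis, 0 to 6) and in 16L:8D (y axis, 0 to 6), with colour on a log10 scale. The corner counts are 9084 probes on all arrays of both groups and 1141 on none.

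Only 7 probes were absent by this score from all 6 animals of a group and present in at least 5 of the other. The 3 missing in 4L:20D were DM15253P2, DM14137P3 and DM08656P1. The 4 missing in 16L:8D were DM04908P1, annotated as a serine/threonine protein kinase, and DM00227P2, DM07397P3 and DM12938P1, without annotation here. DM04908P1 read -5.83, -4.68 and -4.08 in 4L:20D, with 5 of 6 animals above background, and -7.74, -6.85 and -5.51 in 16L:8D, a bound of at least 1.41-fold higher (limma adjusted p 0.482). For the other 3 the bounds were 1.23- to 1.29-fold higher, and none passed (limma adjusted p 0.56 to 0.632). For DM12938P1 the groups overlapped. Controls scored absent read up to -5.13, and animals of 4L:20D scored present read down to -5.23. For the 3 missing in 4L:20D the bounds were larger, 3.00- to 5.07-fold.

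Over all probes, arrays of 4L:20D resembled each other more than those of 16L:8D, with correlations between animals of 0.912 to 0.975 (median 0.960) and 0.863 to 0.986 (median 0.899), and of 0.875 to 0.983 (median 0.933) between the groups. Among the 9084 probes detected on all 12 arrays, the SD over 6 animals was larger in 16L:8D for 5473 and in 4L:20D for 3611, with medians of 0.39 and 0.35. For a difference of the contrast between letters A and B, 0 probes passed (limma, adjusted), with 865 at an unadjusted p below 0.05.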

How the data were processed

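Per the labels, RNA of each animal was labelled with 1 dye and hybridised to a custom Agilent array with 15744 spots. Leaving out controls, 15208 spots (14338 probes) remained. The deposited intensity values are the processed signal of Feature Extraction (10.7.3.1 per the file headers, 9.5.1 in the submitters' processing notes), with background subtracted and no scaling across arrays. A table of log2 values that the authors deposited, scaled by array to the 75th percentile and centred by probe on its median, differed from the rebuilt values by a median of 0.0082 and were used as an alternative.

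Here the log2 of the processed signal was taken relative to the 75th percentile within its array, with spots of a probe averaged and 222 outlier spots (0.0487%) set to missing. Signal at the 75th percentile was 362 to 537 units in 4L:20D and 375 to 533 in 16L:8D. The number of arrays limits the precision. limma 3.58.1 in R 4.3.3 (lmFit, eBayes) was fitted to all 30 arrays with terms for photoperiod, letter and the interaction (the model the methods state) and tested on simulated data. p-values were adjusted over 14337 probes. The chambers were separate vessels, and 2 animals shared each, so the 6 animals of a group are not fully independent. The p-values measure the spread between animals of the same photoperiod and letter, pooled over all 30 arrays.

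Named probes were those past the adjusted threshold, the next 10 calls of the methods' rule, those detected in a single group, up to 4 per list, and those sharing an annotation with the first kind. Others were singled out after their values were seen. The probes, lists and tests were chosen with earlier results of these data known. Annotation and sequences are those of the study's probe lists, and no target name matched the reference gene table. Alternatives were other scalings, background correction by normexp, filters on dim probes, other models and blocks, and each chamber left out. The normexp correction (offset 50, on the median signal, as the mean was not used here) was followed by quantile normalisation. Array weights and the removal of 3 single arrays were added after the data were seen.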

Additional observations from a re-analysis of the deposited data

Results flagged for a closer look

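In 8 of 96 groups of 6 values, the most extreme animal stood apart from the rest by more than Dixon's limit, where chance flags about 1 group in 20. The control replicate 3 animal A stood low in 2 of them: 70.1% of probes were well above background there, where the next control array had 79.6%, and glucose dehydrogenase DM00868P2 read -6.13, where the next read -4.75. In 4L:20D, replicate 1 animal A had a 75th percentile of signal of 362 units (the next had 481) and read -3.82 for DM00119P1 (the next read -3.37). Replicate 2 animal A of 4L:20D, scanned on a later day, read -3.79 for DM07397P3, the highest of its group, and -5.97 for glucose dehydrogenase DM12607P4, the lowest. Replicate 3 animal B of 4L:20D read -5.47 for DM14137P3, with the next at -7.55 and neither above background. The cuticle protein DM12885P2 read 2.59 in replicate 1 animal B of 4L:20D, where the next animal read 4.83.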

How the results depend on the processing

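DM15253P2 stayed past the adjusted threshold in all 24 alternatives that kept it, DM14137P3 in 19 of 24, DM05417P2 in 18 of 25, DM00868P2 in 14 of 24, DM02748P1 in 13 of 25, DM08656P1 in 11 of 24, DM04963P3 in 8 of 23 and DM01796P2 in 8 of 25. Of the 46 named probes, 45 kept their direction throughout; rhodopsin DM06131P3 turned to 0.035 with normexp and 0.027 with slide as a block, neither past the threshold. The count of 8 calls was 5 with normexp, 5 with quantile normalisation, 4 with median scaling, 3 among probes above background on all 12 arrays, 2 on chamber means, 1 with slide as a block and 1 on the 12 arrays alone. The rule of the methods called 41, 71, 71, 48, 185, 91 and 115 probes in these fits. Its share of higher calls was 53.5% with median scaling and 45.1% with quantile normalisation. With normexp DM15253P2 differed by -0.84 and stayed past the threshold (the cause was not tested). Array weights gave 8 calls, 7 of them shared, and 189 by the rule. Leaving out each chamber gave 1 to 6 calls, 74 to 192 by the rule (192 without replicate 2 of 16L:8D) and 21.1 to 45.9% higher. The single call without replicate 1 or without replicate 2 of 4L:20D was DM15253P2. Leaving out replicate 1 animal A of 4L:20D, replicate 2 animal A of 4L:20D or replicate 3 animal A of 16L:8D gave 3, 3 and 4 calls and 55, 91 and 81 by the rule. Detection in a single group held for 7 probes, for 24 at 4 or more arrays, for 3 at all 6, for 3 by the score of positive and significant signal, and for 15 to 34 with a chamber left out, where the criterion itself is looser. With the replicate number as a block (replicate block), 7 probes passed, all among the 8. Chamber means with the same number correlated at -0.05, 0.12 and 0.09 in their deviations over 9084 probes, so the numbers do not pair the chambers. With chamber as a random block 7 passed. The number of arrays and, for dim probes, the background limit what could be detected.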
